A study of Mus musculus with 2 samples.

Results

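The 7 genes described here are the core clock repressors Per1, Per2, Per3, Cry1 and Cry2 and the core clock activators Arntl and Clock, taken by symbol from the 55450 genes listed for a single-cell RNA study of mouse brain microglia. Arntl is the gene of the protein BMAL1. The study set an awake group against an anesthesia group, and all mice were adult male C57BL/6J, an inbred strain, with no transgene named. The awake group was 3 mice given saline. The anesthesia group was 3 mice given 100 mg/kg sodium pentobarbital, a barbiturate anesthetic. Mice of both groups were housed with 12 h of light per day, and brains of both groups were dissociated with enzymes and sorted for CD11b-positive, CD45-low cells, the usual gate for microglia. Each group is 1 library made with a 10x Genomics Chromium 3' kit that counts RNA molecules by unique molecular identifiers (UMIs) near their 3' ends. The sources used here do not give the hour of collection, the duration of anesthesia or whether mice were pooled within a group. Clock gene levels follow the time of day in most tissues. Collection time, library, handling and treatment group cannot be told apart below.

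The clock of mammalian cells is a feedback loop of transcription and translation. The proteins of Arntl and Clock bind together to E-box sequences and drive transcription of the Per and Cry genes, and the PER and CRY proteins return to the nucleus and inhibit that activation. In a second loop the REV-ERB receptors, products of Nr1d1 and Nr1d2, repress Arntl, while ROR receptors activate it through the same sites. Microglia, the resident macrophages of the brain, carry this clock, as nearly all cells do, so no cell class in the libraries serves as a background that lacks these genes.

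The awake library held 53262885 UMIs in 8600 barcodes and the anesthesia library 61139016 UMIs in 9412 barcodes. Microglia-like cells were 7818 awake and 8568 anesthesia cells, 95.1% and 95.8% of the cells kept. All 10 microglial markers were above 0 in both libraries, which also held in every other class and so does not set these cells apart. Their median depth was 5966 UMIs for awake and 5442 for anesthesia cells, and their median mitochondrial share was 1.35% and 2.15%. There were 14 barcodes found in both libraries. Awake and anesthesia microglia-like cells fell mostly into different clusters: 3 clusters held 7292 awake and 223 anesthesia cells, 3 others held 175 awake and 8192 anesthesia cells, and 2 mixed clusters held 351 and 153. Neither group has a replicate library, so no test was made. "Higher" and "lower" describe these libraries, and every interval is a 95% interval for counting error only.

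Promoter stretches of 5 members are shown because they carry the DNA elements through which the loop is known to act. A table of RefSeq start sites on GRCm38 gave 10 windows for 6 of the 7 members, each with 250 bases before and 50 bases after a start, and Per2 had no entry. Sequences run 5' to 3' on the gene's own strand, and capitals mark the motif letters. The motifs searched on both strands were the E-box CACGTG, the related E-prime box CACGTT, the D-box TTATGNAA bound by the output factors Dbp, Tef, Hlf and Nfil3, the AGGTCA half-site of REV-ERB and ROR receptors, and the half-site TGACGT of cAMP response factors.
Cry1, chr10:85185075-85185184, minus strand: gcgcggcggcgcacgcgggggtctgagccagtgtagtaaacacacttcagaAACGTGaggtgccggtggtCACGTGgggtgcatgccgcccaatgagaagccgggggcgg
Per1, chr11:69098759-69098938, plus strand: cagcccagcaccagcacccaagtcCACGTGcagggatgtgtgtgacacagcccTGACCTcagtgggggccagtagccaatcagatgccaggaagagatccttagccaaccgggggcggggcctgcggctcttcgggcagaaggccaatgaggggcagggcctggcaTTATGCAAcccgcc
Per3, chr4:151044796-151044895, minus strand: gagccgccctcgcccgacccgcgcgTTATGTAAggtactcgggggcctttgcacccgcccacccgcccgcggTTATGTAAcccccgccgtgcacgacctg
Cry2, chr2:92434200-92434269, minus strand: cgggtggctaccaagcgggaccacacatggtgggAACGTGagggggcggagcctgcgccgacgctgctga
Arntl, chr7:113207531-113207560, plus strand: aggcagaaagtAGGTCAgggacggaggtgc

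The Cry1 window held an E-box at position -60 and, on the opposite strand, an E-prime box at -79, counted from the start site. The Per1 window at the start 69098949 held an E-box at -166, an AGGTCA half-site read on the opposite strand at -137 and a D-box at -24. Per3 had a pair of D-boxes at -205 and -158. The Cry2 window had an E-prime box on the opposite strand at -166. The Arntl motif lay at position 32, inside the first exon of the start at 113207511. A Clock window, at the start 76303502, held an AGGTCA half-site on the opposite strand at -119. A second Per1 window, at the start 69100152, held the cAMP half-site at -132. Over all 32851 windows of this length, an E-box stood in 7.15%, an E-prime box in 4.68%, a D-box in 3.38%, an AGGTCA half-site in 16.3% and TGACGT in 7.51%. A letter match is a description and not a bound site.

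In microglia-like cells, 5 of the 7 members were at least 1.5-fold higher in the anesthesia library (Per2, Per3, Cry1, Cry2 and Clock) and 0 were at least 1.5-fold lower. Over all 11462 genes with at least 200 UMIs, 13.3% were that much higher and 12.1% lower. All 7 members met that minimum, and their median log2 ratio of anesthesia over awake was 0.83, against -0.02 for all measured genes. Per1 and Arntl lay within 1.5-fold. When ratios were taken within clusters, the number at least 1.5-fold higher was 3, with Per3 at 0.26 and Cry2 at 0.49. Among all measured genes, 11.7% were that much higher within clusters.

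Per2, a repressor whose protein brings the PER and CRY complex together, had the highest ratio of the 7. Its UMIs were 90 in the awake library, 1.79 UMIs per 1000000 UMIs (CPM; 1.44 to 2.20), and 704 in the anesthesia library, 12.3 CPM (11.4 to 13.2). The log2 ratio was 2.77 (2.46 to 3.11), a 6.84-fold difference, at the 99.9th percentile of the measured genes, and was 2.02 when taken within clusters. The intervals of the libraries were far apart. Per2 lies at chr1:91415982-91459324 on the minus strand of GRCm38.

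Per1, a PER gene that responds acutely to hormones and cAMP in many cells, was at nearly the same level in both libraries. It had 3241 awake UMIs, 64.5 CPM (62.3 to 66.8), and 3760 anesthesia UMIs, 65.5 CPM (63.4 to 67.6). The log2 ratio was 0.02 (-0.05 to 0.09), near the middle of all measured genes at the 53.0th percentile. Per1 lies at chr11:69095217-69109960 on the plus strand.

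Per3, a PER protein that is not needed for the rhythm itself, stood between the other PER genes in its difference. It had 454 awake UMIs, 9.04 CPM (8.23 to 9.91), and 921 anesthesia UMIs, 16.0 CPM (15.02 to 17.1), at chr4:151003652-151044665 on the minus strand. The log2 ratio was 0.83 (0.66 to 0.99), 1.77-fold higher. Per1 gave 85.6% of the UMIs of the PER genes in the awake library and 69.8% in the anesthesia library. The share of Per2 was 2.38% and 13.1%, and that of Per3 was 12.0% and 17.1%. The makeup of PER messages thus differed between the libraries, with a smaller part from Per1.

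Both cryptochromes, the repressors that hold the activator complex inactive, were higher in the anesthesia library. Cry1 had 424 awake UMIs, 8.44 CPM (7.66 to 9.28), and 1331 anesthesia UMIs, 23.2 CPM (22.0 to 24.5). Its log2 ratio was 1.46 (1.30 to 1.62), 2.75-fold, at the 98.8th percentile, and the gene lies at chr10:85131700-85185064 on the minus strand. Cry2 had 309 awake UMIs, 6.15 CPM (5.48 to 6.88), and 713 anesthesia UMIs, 12.4 CPM (11.5 to 13.4). Its log2 ratio was 1.01 (0.82 to 1.21), 2.02-fold, and the interval did not overlap that of Cry1. Cry2 lies at chr2:92403646-92434043 on the minus strand. Its exons overlap the antisense gene D930015M05Rik, which had 0 awake and 3 anesthesia UMIs.

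The activators differed in opposite directions. Clock, the partner of BMAL1, had 1772 awake UMIs, 35.3 CPM (33.7 to 37.0), and 3345 anesthesia UMIs, 58.3 CPM (56.3 to 60.3), at chr5:76209868-76304792 on the minus strand. The log2 ratio was 0.72 (0.64 to 0.81), 1.65-fold higher, and was 0.29, under 1.5-fold, once the trend of all ratios with GC content and transcript length was removed. Arntl, at chr7:113207465-113314126 on the plus strand, had 480 awake UMIs, 9.56 CPM (8.72 to 10.5), and 433 anesthesia UMIs, 7.54 CPM (6.85 to 8.29). Its log2 ratio was -0.34 (-0.53 to -0.15), at the 24.97th percentile. It was lower beyond counting error, by an amount that many measured genes reached. Arntl gave 21.3% of the UMIs of Arntl and Clock together in the awake library and 11.5% in the anesthesia library.

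**Figure D1:**
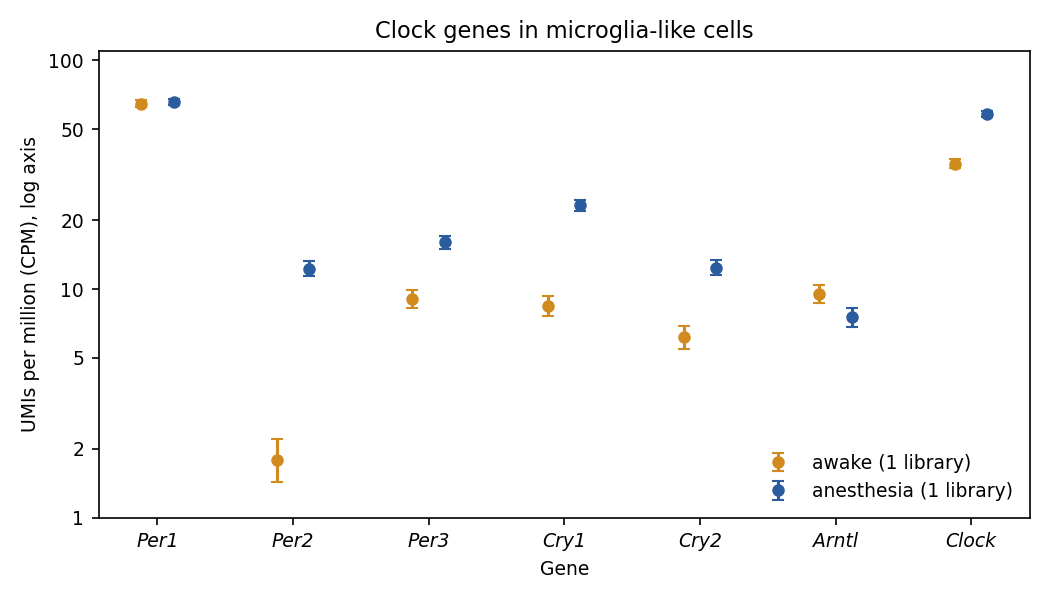
Level of each clock gene in microglia-like cells, in UMIs per 1000000 UMIs on a log axis, with 1 point per library and 95% counting intervals as bars. Per1 sits near 65 in both libraries, Per2 differs most (1.79 and 12.3), and Arntl is the gene whose awake point (9.56) is clearly above its anesthesia point (7.54). Genes are not to be ranked by level here, since how fully each gene is counted was not tested.

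Markers of the 14 other cell classes were also present in the microglia-like cells, at summed levels far below the 22198 CPM (awake) and 20161 CPM (anesthesia) of the 10 microglial markers. The highest sums were those of B cell markers, 232 and 205 CPM, of border-associated macrophage markers, 136 and 135, of oligodendrocyte markers, 132 and 124, and of erythroid or platelet markers, 97.1 and 123. The lowest were those of oligodendrocyte precursor markers, 1.59 and 2.33 CPM. Endothelial markers summed to 72.1 and 53.9 CPM with none of 10 at 0, neutrophil markers to 52.8 and 4.09 with 0 and 3 of 10 at 0, and choroid plexus or ependymal markers to 45.9 and 60.4 with 1 and 0 of 10 at 0. Of the B cell markers, 5 and 3 of 10 were at 0. Their part in the clock ratios was not tested.

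The other genes of the clock were described through 6 lists, 59 genes in all, of which 50 were measured. In the nuclear receptor and output loop, 5 of 7 measured genes passed 1.5-fold upward and 0 downward, and the median log2 ratio was 0.89, beside 13.3% upward and 12.1% downward among all measured genes. Nr1d1 had 217 awake and 647 anesthesia UMIs, and Nr1d2 had 1671 and 4674. Their log2 ratios were 1.38 (1.16 to 1.61) and 1.29 (1.21 to 1.37). The D-box activators Dbp, Tef and Hlf were at 0.89, 0.70 and 1.02, and Tef was under 1.5-fold within clusters at 0.43. Nfil3, the D-box repressor, was at -0.34 and Rora, an activator of Arntl, at 0.52, both within 1.5-fold.

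The feedback helix-loop-helix and partner factors had 3 measured genes of 7. Ciart, a repressor of the BMAL1 complex, was 1.5-fold or more higher at 0.92, while Bhlhe41, a repressor that competes for E-boxes, was at 0.27 and Tipin, the partner of Timeless, at -0.40. The list's median was 0.27. Bhlhe40 had 43 awake and 147 anesthesia UMIs, below the minimum of 200.

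The enzymes that modify the clock proteins had lower medians than the lists above. Among all measured genes 13.3% were 1.5-fold higher and 12.1% lower. Counts this small are near those shares and are not read as a result about the enzymes. Of 10 measured kinases and phosphatases, 0 were 1.5-fold higher and 0 lower, with a median of 0.06. Prkaa1, a catalytic subunit of AMP kinase, was at -0.01 and Csnk2a2, a casein kinase 2 subunit, at -0.10. Of 9 measured ubiquitin ligases and proteases, 1 was higher and 0 lower, with a median of 0.13. That gene was Skp1a, the SCF ligase adaptor, at 0.94, while Rbx1, the RING subunit of the same ligases, was at 0.01 and the protease Usp7 at 0.10.

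Among 11 chromatin partners and coregulators, 1 was higher and 1 lower, with a median of 0.31. Sirt1, an NAD-dependent deacetylase, was at 0.74, or 0.55 and under 1.5-fold within clusters. Hdac3, the deacetylase through which REV-ERB receptors repress, was at -0.72 (-0.84 to -0.60). The corepressor Ncor1, which recruits Hdac3, was at 0.08. Of 10 measured signal inputs to Per1 and Per2, 1 was higher and 0 lower, with a median of 0.01. That gene was Hif1a, the hypoxia-inducible factor, at 0.75, which fell under 1.5-fold within clusters (0.40) and after removal of the GC and length trend (0.56). Creb1 and Sik1, members of the cAMP pathway, were both at -0.01. Over the 6 lists, 9 of 50 measured genes were 1.5-fold higher and 1 lower, with a median of 0.14, beside 13.3% higher and 12.1% lower among all measured genes. The share higher was thus near that of all genes, and nothing about the 6 lists as a whole is read from it.

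**Figure D2:**
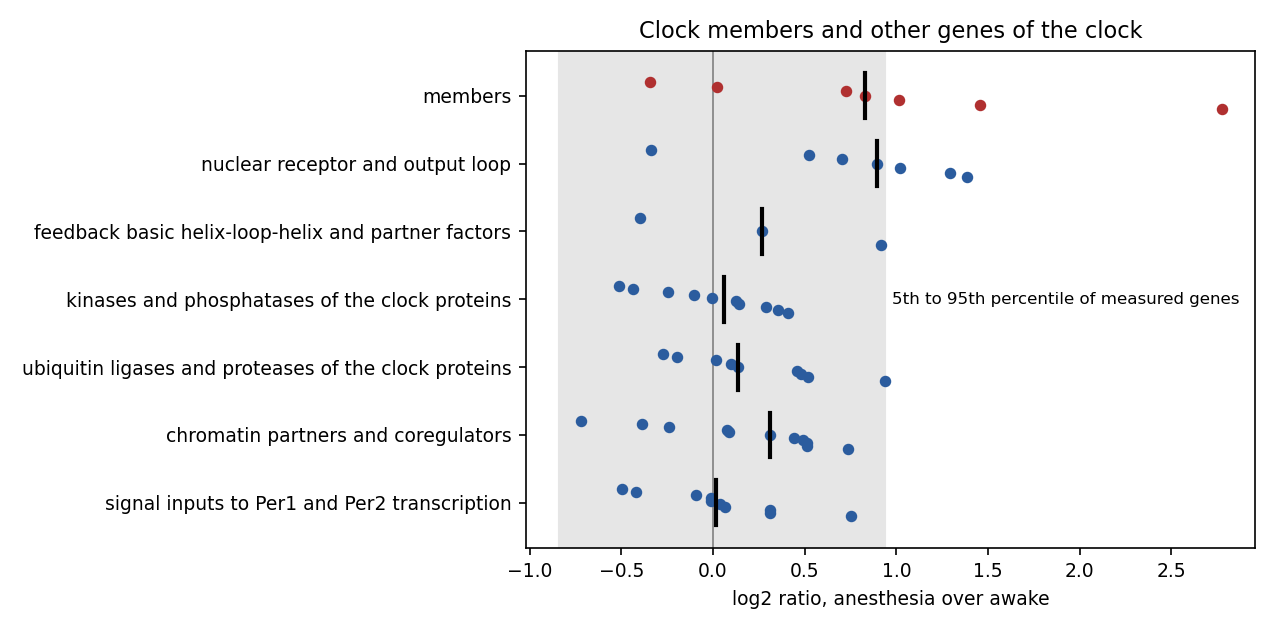
Log2 ratio of anesthesia over awake for the 7 members and for the measured genes of the 6 other clock lists, 1 point per gene, with the list's median as a black bar. The shaded band runs from the 5th to the 95th percentile of all 11462 measured genes (-0.84 to 0.94), and the members and the nuclear receptor and output loop have the highest medians, 0.83 and 0.89.

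The same UMIs were also described by the share of cells with a UMI. Where most such cells hold a single UMI this share follows the level, so it is not a second support. To hold depth fixed, every cell was thinned to a depth of 2000 UMIs, and 190 awake and 308 anesthesia cells below it were left out. Per2 was seen in 25 of 7628 awake cells, 0.328% (0.212 to 0.483), and in 194 of 8260 anesthesia cells, 2.35% (2.03 to 2.70). Cry1 was seen in 1.48% and 4.08%, Cry2 in 1.27% and 2.29%, Per3 in 1.84% and 3.08% and Clock in 6.88% and 10.8%. Per1 was seen in 12.0% (11.3 to 12.8) and 11.5% (10.9 to 12.2), and Arntl in 1.70% and 1.51%. The order of the libraries in the thinned shares was that of their CPM for each gene apart from Per1, whose intervals overlapped.

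At full depth the shares of cells with a UMI were higher but ordered alike. Awake and anesthesia cells with Per2 were 1.13% and 7.46%, those with Cry1 5.07% and 13.2%, those with Clock 19.0% and 28.6%, and those with Per1 32.0% and 30.8%. The 704 Per2 UMIs of the anesthesia library came from 639 cells, so that nearly every Per2 cell held a single UMI. The variance of thinned UMIs per cell over their mean lay, over the 7 genes, between 0.98 and 1.06 in awake cells and between 0.99 and 1.10 in anesthesia cells, where 1 is the value of pure counting. At full depth the ratio for Per1 was 1.15 and 1.49.

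**Figure D3:**
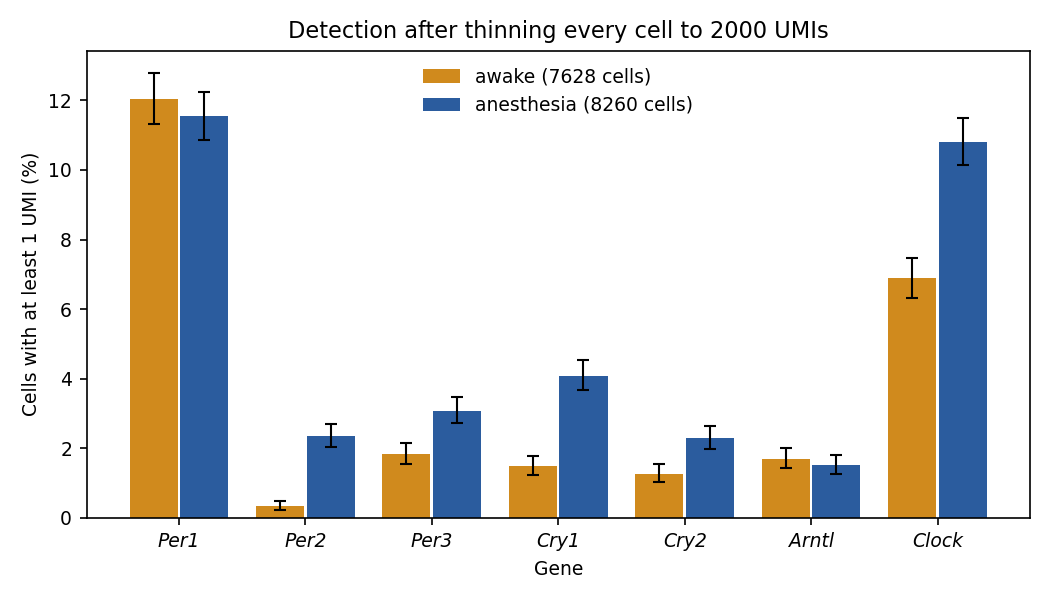
Share of microglia-like cells with at least 1 UMI of each gene after thinning to 2000 UMIs per cell, in percent, with 1 bar per library and 95% binomial intervals as error bars. Per2, Per3, Cry1, Cry2 and Clock are seen in more anesthesia than awake cells, while the intervals of the libraries overlap for Per1 and Arntl.

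No member at all was seen in most thinned cells, 76.8% of those of the awake library and 69.7% of those of the anesthesia library. Exactly 1 member was seen in 20.99% and 25.5%, and exactly 2 members in 2.10% and 4.33%. Pairs of members were compared with the number of joint cells expected from the product of their shares, for pairs with at least 5 expected cells. Among the 21 possible pairs, 9 could be described in awake and 17 in anesthesia cells. The ratio of observed to expected joint cells ranged from 0.77 to 1.35 with a median of 1.04 in the awake library, and from 0.88 to 1.61 with a median of 1.18 in the anesthesia library.

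None of the 9 awake pairs described had an interval above 1, and 2 of the 17 anesthesia pairs did. Per1 and Per2 were seen together in 36 anesthesia cells against 22.4 expected, a ratio of 1.61 (1.13 to 2.22). In awake cells this pair had 4 joint cells against 3.01 expected, too few to be among the 9, so the libraries cannot be compared for it. Per1 and Cry2 were seen together in 32 anesthesia cells against 21.8, a ratio of 1.47 (1.004 to 2.07). With cells thinned to 4000 UMIs the anesthesia ratios of these 2 pairs were 1.17 (0.93 to 1.46) and 0.98 (0.76 to 1.23), so neither stood apart from 1 there. The awake ratio of Per1 and Per2 at that depth was 0.66 (0.26 to 1.35), from 7 joint cells against 10.6 expected. Its interval overlapped that of the anesthesia cells. Per1 and Clock, the pair with the most joint cells, had ratios of 1.09 in both libraries.

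**Figure D4:**
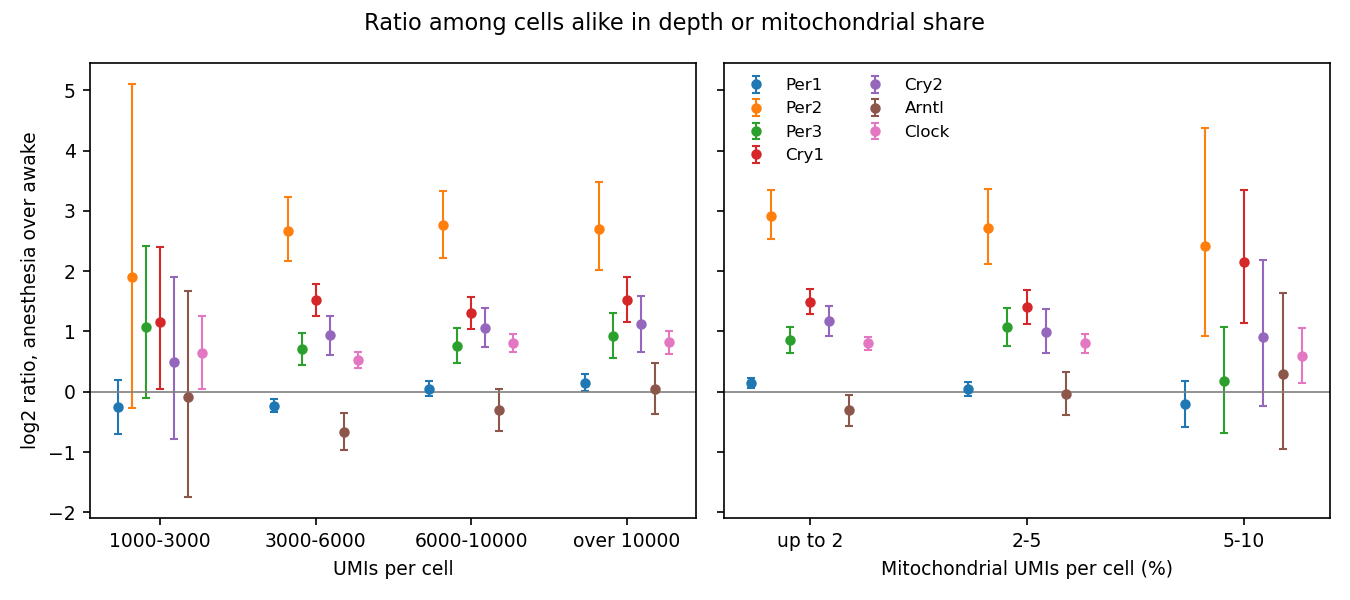
Log2 ratio of anesthesia over awake for each clock gene among microglia-like cells of like depth (4 bands of UMIs per cell) and like mitochondrial share (3 bands), with 95% counting intervals as bars. Per2, Per3, Cry1, Cry2 and Clock are above 0 in all 7 bands, while Per1 and Arntl lie on both sides of 0.

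Depth and mitochondrial share differed between the libraries, so the ratios were taken among cells alike in each. In 4 bands of depth from 1000 to over 10000 UMIs and 3 bands of mitochondrial share up to 10%, Per2, Per3, Cry1, Cry2 and Clock were higher in the anesthesia library in 7 of 7 bands. The log2 ratio ranged from 1.91 to 2.92 for Per2, from 1.15 to 2.16 for Cry1, from 0.53 to 0.82 for Clock, from 0.49 to 1.18 for Cry2 and from 0.17 to 1.08 for Per3. The interval lay above 0 in all 7 bands for Cry1 and Clock, in 6 for Per2 and in 5 each for Per3 and Cry2.

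Per1 moved with depth. Its log2 ratio was -0.23 (-0.34 to -0.12) in cells of 3000 to 6000 UMIs and 0.15 (0.01 to 0.29) in cells above 10000 UMIs, so the nearly equal levels over all cells hold both directions. Arntl ranged from -0.66 (-0.97 to -0.35) at 3000 to 6000 UMIs to 0.29 at 5 to 10% mitochondrial UMIs. It was below 0 beyond counting error in 2 of 7 bands and above 0 beyond it in 0.

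Cells of both libraries that lay in the same kind of cluster gave a further view, with clock genes kept out of the genes used for clustering. In the 3 clusters made mostly of awake cells, awake cells had 7.97 CPM of Cry1 and anesthesia cells 25.3 CPM (16.0 to 37.9), and for Clock these values were 35.4 and 69.3 CPM (53.2 to 88.6). Per2 was at 1.76 CPM in awake cells, and 7 UMIs put it at 7.70 CPM (3.09 to 15.9) in anesthesia cells. The anesthesia cells among mostly awake cells were thus above their neighbours for these genes.

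In the 3 clusters made mostly of anesthesia cells, the few awake cells had wide intervals. Per2 was at 4.44 CPM (1.21 to 11.4, from 4 UMIs) in awake and 12.4 CPM in anesthesia cells, and Cry1 at 17.8 CPM (10.1 to 28.8) and 23.1 CPM, a log2 ratio of 0.38 (-0.33 to 1.19). Clock was at 40.0 CPM (28.0 to 55.3) and 58.4 CPM. For Cry1 the awake cells of these clusters could not be told from the anesthesia cells at this depth. Cry2 was at -0.47 (-2.36 to 0.90, from 4 anesthesia UMIs) in the mostly awake clusters, 0.32 (-0.93 to 1.47) in the mixed and 1.51 (0.14 to 3.39, from 4 awake UMIs) in the mostly anesthesia clusters. Per3 was at 1.10 (0.31 to 1.80) in the mostly awake, -0.28 (-1.47 to 0.78) in the mixed and -0.14 (-0.85 to 0.67) in the mostly anesthesia clusters. All 3 negative values had intervals that included 0, so no direction could be read from them at this depth.

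**Figure D5:**
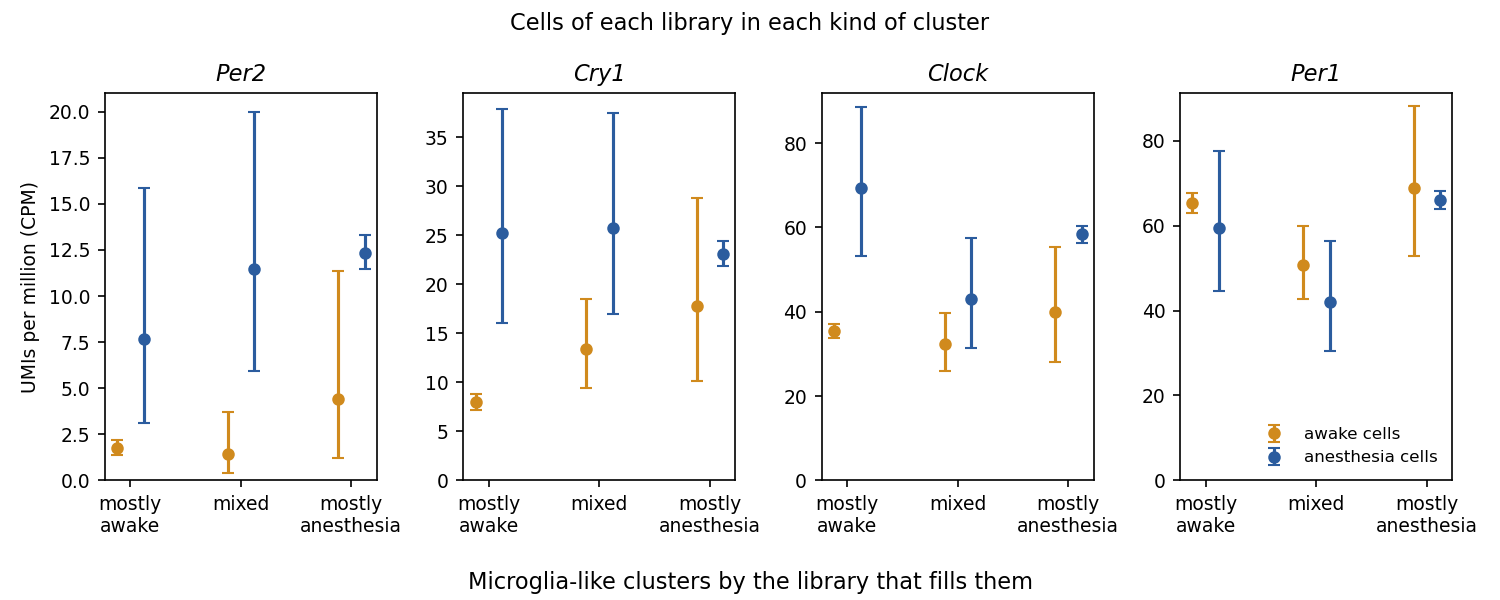
Level of Per2, Cry1, Clock and Per1 (UMIs per 1000000 UMIs, linear axes from 0) in awake and anesthesia cells of clusters filled mostly by awake cells, of mixed clusters and of clusters filled mostly by anesthesia cells, with 95% counting intervals as bars. Anesthesia cells are above awake cells in each kind of cluster for Per2, Cry1 and Clock, with overlapping intervals for Cry1 in the mixed and mostly anesthesia clusters and for Clock in the mixed clusters, and Per1 overlaps throughout.

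Among the other classes with at least 20 cells in each library, endothelial-like cells showed the clearest difference from microglia-like cells. There were 88 awake and 111 anesthesia cells of this class, all 10 endothelial markers were above 0, and microglial markers summed to 19.2% and 46.4% of their level in microglia-like cells. The part of such microglial RNA in the levels below was not tested. Per1 had 21 awake UMIs, 39.4 CPM (24.4 to 60.3), and 79 anesthesia UMIs, 105 CPM (83.1 to 131), a log2 ratio of 1.41 (0.70 to 2.18). Against microglia-like cells of the same library, endothelial-like Per1 was lower in the awake library at -0.71 (-1.41 to -0.10) and higher in the anesthesia library at 0.68 (0.34 to 1.002).

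Per1 was also compared by endothelial-like sub-cluster. The one filled mostly by awake cells had 38.6 CPM of Per1 in its 72 awake cells (16 UMIs), with microglial markers at 2175 CPM. The one filled mostly by anesthesia cells had 125 CPM in its 59 anesthesia cells (32 UMIs), with microglial markers at 2274 CPM. In the third, with 13 awake and 44 anesthesia cells, Per1 was at 39.4 CPM from 4 UMIs and 95.6 CPM from 44 UMIs, and microglial markers were higher there, at 11989 and 13919 CPM.

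By CPM, Arntl was higher in endothelial-like than in microglia-like cells of both libraries. The log2 ratios were 1.11 (0.10 to 1.96) for awake and 2.08 (1.42 to 2.67) for anesthesia cells. It had 11 awake UMIs, 20.6 CPM, and 24 anesthesia UMIs, 31.9 CPM, a log2 ratio of 0.63 (-0.46 to 1.80) between the libraries. After thinning to 2000 UMIs, 1 of 81 awake and 9 of 100 anesthesia endothelial-like cells held Arntl, and 8 and 18 held Per1. The other members had between 1 and 25 awake UMIs in this class, and their intervals included 0: Clock was at 0.25, Per3 at 0.76, Cry1 at 0.72, Cry2 at 0.31 and Per2 at 2.50 (1 and 8 UMIs).

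In border-associated macrophage-like cells, 55 awake and 40 anesthesia cells with median depths of 6711 and 14229 UMIs, Per2 and Per3 were higher in the anesthesia library. Per2 had 0 awake and 14 anesthesia UMIs, 19.5 CPM (10.7 to 32.8), and the interval of its log2 ratio had a lower limit of 0.92. Per3 had 1 awake and 20 anesthesia UMIs, a log2 ratio of 3.51 (0.87 to 8.89). Clock was at 1.0 (-0.05 to 2.18), and Per1, Cry1, Cry2 and Arntl had intervals that included 0. Microglial markers summed to 62.1% and 88.1% of their level in microglia-like cells, so these values are not free of microglial RNA, and its part was not tested.

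Choroid plexus or ependymal-like cells, 33 awake and 76 anesthesia, had less Per1 than microglia-like cells in both libraries, at -1.01 (-2.14 to -0.08) and -0.63 (-1.28 to -0.04). Microglial markers summed to 27.6% and 42.1% of their level in microglia-like cells, and their part was not tested. Between the libraries no member's interval lay beyond 0 in this class, with Clock at 0.68 (11 and 34 UMIs) and Per1 at 0.40 (9 and 23 UMIs). Erythroid or platelet-like cells, 74 and 36, carried microglial markers at 90.02% and 94.3% of the microglia-like level. No member's interval lay beyond 0 there either, and Per1 was at -0.35 (33 and 15 UMIs).

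Ordered by class, Per1 in the awake library ran from 73.6 CPM in erythroid or platelet-like and 73.3 in border-associated macrophage-like cells through 64.5 in microglia-like and 39.4 in endothelial-like to 32.1 in choroid plexus or ependymal-like cells. In the anesthesia library it ran from 105 in endothelial-like through 80.9 in border-associated macrophage-like, 65.5 in microglia-like and 57.6 in erythroid or platelet-like to 42.5 in choroid plexus or ependymal-like cells. Neighbours in these orders had overlapping intervals except microglia-like and endothelial-like cells in the awake library. The place of endothelial-like cells thus differed between the libraries.

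Across 16 sums of at least 50 cells by cluster and library, the members differed in how they varied together. Most sums were of microglia-like cells. The others were of endothelial-like, choroid plexus or ependymal-like and erythroid or platelet-like cells. Pearson's r of log2(CPM + 1) was 0.84 for Per2 and Cry1, 0.77 for Per2 and Clock, 0.75 for Per3 and Cry1 and 0.67 for Per2 and Per3. It was 0.06 for Per1 and Per2, -0.07 for Per1 and Cry1 and -0.46 for Cry1 and Arntl. These sums come from the same libraries and differ in depth and in cell class. Sums of both libraries are mixed, so r also holds the differences between the libraries given above, whose part was not tested. Some hold few UMIs of a member, such as 1 Cry2 UMI in a sum of 81 anesthesia microglia-like cells. The values of r are thus a description only.

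Among 7910 genes with at least 1000 UMIs, those most like a member in these sums were found by the same r. How far these values follow counting error, library or cell class was not tested, and the genes are not read as partners of a member. They were Clasrp (0.85), Drosha (0.84) and Ptp4a2 (0.82) for Per1, and Champ1 (0.89), Uri1 (0.87) and Zc3h15 (0.84) for Per3. Cry1 was most like Pex3 (0.86), Zfp445 (0.85) and Utp3 (0.85), and Cry2 most like Micu3 (0.91), Mrpl16 (0.89) and CT030661.1 (0.89). Clock was most like Tcea1 (0.92), Cox16 (0.88) and Snrpf (0.87).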

How the data were processed

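The authors deposited 1 matrix of UMI counts per gene and barcode for each library, whole-number counts that are not normalized. They used bcl2fastq and Cell Ranger 3.1.0 with GRCm38, per the submitters' processing notes, while Cell Ranger 4.0.0 wrote the matrices, per the file headers. The cell calling is not stated in the sources used here. Cells with at least 500 genes, 1000 UMIs and at most 10% mitochondrial UMIs were kept, 8223 awake and 8944 anesthesia.

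Cells were clustered with scanpy 1.11.5 and leidenalg 0.10.2 (2000 variable genes without clock genes, 30 components, 15 neighbours, resolution 0.6). Clusters not named microglia-like were clustered again. A cluster was named from 10 markers for each of 15 classes: microglia, border-associated macrophage, monocyte, neutrophil, T cell, NK cell, B cell, endothelial, mural, astrocyte, oligodendrocyte, oligodendrocyte precursor, neuron, choroid plexus or ependymal, and erythroid or platelet. The thresholds for naming were set after seeing the data. Scrublet called 0 doublets in either library, so the caller failed and all cells stayed in. As an alternative, the 8% with the highest scores in each library were dropped.

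UMI counts were summed per library and class. Ratios have exact conditional binomial, levels exact Poisson and shares exact Clopper-Pearson intervals, computed with scipy 1.17.1. UMI totals per library were 53262885 and 61139016. Levels and ratios used the UMIs of the class in each library as totals, for microglia-like cells 50228907 awake and 57413165 anesthesia UMIs. Scripts were tested on simulated data. The members and gene lists were chosen with earlier results of these data known. All members were named, with every measured list gene at least 1.5-fold different, up to 2 per list nearest 0, and the 3 genes most correlated with each member of at least 1000 UMIs. Nfil3 and Rora are the 2 measured genes of their list nearest 0. Bhlhe40 lies outside this rule and was chosen after its values were seen. All 55450 gene identifiers matched the GENCODE M21 annotation of GRCm38, which gave gene positions. Mkl1 of the signal list was not matched by symbol. The other alternatives changed library totals, filters, depth, weighting of cells and clustering. A gene that the rule picks is not reported here.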

Additional observations from a re-analysis of the deposited data

Results flagged for a closer look

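Arntl pointed in opposite directions in different cell classes. In endothelial-like cells its log2 ratio of anesthesia over awake was 0.63 (-0.46 to 1.80, from 11 and 24 UMIs), while in microglia-like cells it was -0.34 (-0.53 to -0.15). Each class has 1 library per group, so the difference between the classes was not tested, and the endothelial-like interval includes the microglia-like value. Microglial markers in the endothelial-like cells were at 19.2% (awake) and 46.4% (anesthesia) of the microglia-like level, and their part was not tested.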

How the results depend on the processing

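Over 13 other ways of forming the ratios, Per2 (2.02 to 2.85), Per3 (0.26 to 0.88), Cry1 (1.04 to 1.56), Cry2 (0.49 to 1.11) and Clock (0.29 to 0.76) stayed above 0, Arntl (-0.48 to -0.16) stayed below it, and Per1 ran from -0.13 to 0.12. The number of members at least 1.5-fold higher was 3 with ratios within clusters, beside 11.7% of all measured genes, in place of 5. It was 3 at a 2-fold threshold. For the other clock genes, 3 in place of 9 were higher at 2-fold. The share of all genes past 2-fold was not computed, so the 2-fold counts have no background beside them. The number lower was 2 after removing the trend of GC content and length, 2 with thinned cells, 3 with no minimum beyond 1 UMI per library and 0 at 2-fold, in place of 1. Without that minimum 12 were higher, beside 25.8% higher and 15.4% lower among all genes then counted. Among all genes, 10.6% were lower after removing the trend and 11.8% with thinned cells. Within clusters, Tef (0.43), Sirt1 (0.55) and Hif1a (0.40) were under 1.5-fold, and Hif1a was at 0.56 with the trend removed. Ratios by kind of cluster, added with those by endothelial-like sub-cluster after seeing the data, put Cry2 below 0 in the mostly awake clusters (-0.47) and Per3 in the mostly anesthesia (-0.14) and mixed clusters (-0.28), each with an interval that included 0. The cause of these changes was not tested. No paired analysis was possible because each group has 1 library. Depth limits the other classes, where single members had 0 to 25 awake UMIs outside Per1, and the within-cluster ratios, which rest on few cells of one library.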
